A study of Mus musculus with 15 samples.

Results

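The brain extracellular matrix genes described here are 10 of the 19475 genes deposited for the brains of 15 mouse embryos: the lecticans Acan, Bcan, Ncan and Vcan, the link protein Hapln1, the tenascins Tnc and Tnr, and the hyaluronan genes Has2, Has3 and Cemip. They were listed by name for their place in this matrix and matched through their Ensembl identifiers, and all 10 were among the 16507 genes whose mean over the embryos was at least 5. All embryos were C57BL/6J mice at E16.5, late in gestation, with 5 WT, 5 Tbr1+/K228E and 5 Tbr1K228E/K228E embryos, and each genotype held 3 females and 2 males. Tbr1 encodes a T-box transcription factor of early-born cortical neurons. The K228E allele is a germline knock-in that replaces a lysine of the DNA-binding T-box by glutamate, made with a floxed selection cassette that a protamine-Cre transgene removed, so that every cell of a mutant embryo carries it. The question was how the allele, in 1 or both copies, changes the transcripts of the fetal brain. The labels give the tissue as brain, the series names the whole brain and the study's account of its RNA-Seq names the forebrain. The 5 forebrain markers Emx1, Emx2, Lhx2, Dlx1 and Dlx2 were measured in every genotype, with summed normalized read counts between 7123 and 15333 per embryo.

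Hyaluronan is a long sugar chain that synthases of the Has family extrude from the cell surface, and it forms the backbone of the brain matrix. Lecticans are chondroitin sulfate proteoglycans that bind hyaluronan at one end and tenascins at the other, and link proteins lock the lectican to the hyaluronan chain. Cemip binds hyaluronan and is needed for its depolymerization. In the fetal brain this matrix is loose and surrounds dividing progenitors and migrating neurons, whereas the dense nets around mature neurons form after birth.

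The depth estimated from the spacing of the lowest values was 26300000 to 38000000 reads per embryo. Tbr1 itself averaged 3537 ± 1049, 6269 ± 1532 and 11366 ± 3160 normalized read counts (SD, n = 5) from WT over Tbr1+/K228E to Tbr1K228E/K228E embryos. It was 1.69 higher on the log2 scale in Tbr1K228E/K228E than in WT embryos (adjusted p = 0.00437, limma with Benjamini-Hochberg adjustment) without overlap. Summed markers of tissues that a dissection can include varied widely among embryos of the same genotype. The 18 Hox genes of the hindbrain and spinal cord summed to between 7.77 and 3966, and the 12 meningeal genes to between 671 and 34734. For the scores of 10 marker lists, the two-sided exact permutation tests between genotypes, of 5 against 5 embryos, gave p from 0.143 to 0.968. Since whole tissue was measured, fewer cells of a type and less RNA per cell cannot be told apart in any result that follows.

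The matrix of the E16.5 brain was rich in Ncan, Tnc and Vcan transcripts and held little Acan and Hapln1. Levels were compared between genes as the normalized read count per kb of exon. The length was that of all annotated exons of a gene, joined over its transcripts. Which transcripts were expressed was not examined, so that levels of genes with unused annotated exons may be understated. In the WT embryos, Ncan (neurocan, a lectican made mainly by neurons) was highest, with 2243 ± 159 (SD, n = 5) per kb. Tnc (tenascin-C, a matrix glycoprotein of progenitor zones) followed with 1104 ± 88.1 (SD, n = 5), and Vcan (versican, a large lectican found in many tissues) with 716 ± 82.0 (SD, n = 5). Bcan (brevican, a small lectican largely of glia) had 456 ± 112 (SD, n = 5), Tnr (tenascin-R, made by oligodendrocyte lineage cells and some neurons) 214 ± 18.4 (SD, n = 5), and Has3 138 ± 9.08 (SD, n = 5). Has2 and Cemip lay close together at 36.5 ± 6.50 (SD, n = 5) and 34.1 ± 3.87 (SD, n = 5), and Hapln1 and Acan were lowest at 5.86 ± 4.13 (SD, n = 5) and 4.83 ± 4.84 (SD, n = 5). Each gene lay above the next in all 5 WT embryos, except that the WT embryos of Vcan and Bcan, of Has2 and Cemip, and of Hapln1 and Acan overlapped.

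**Figure D1:**
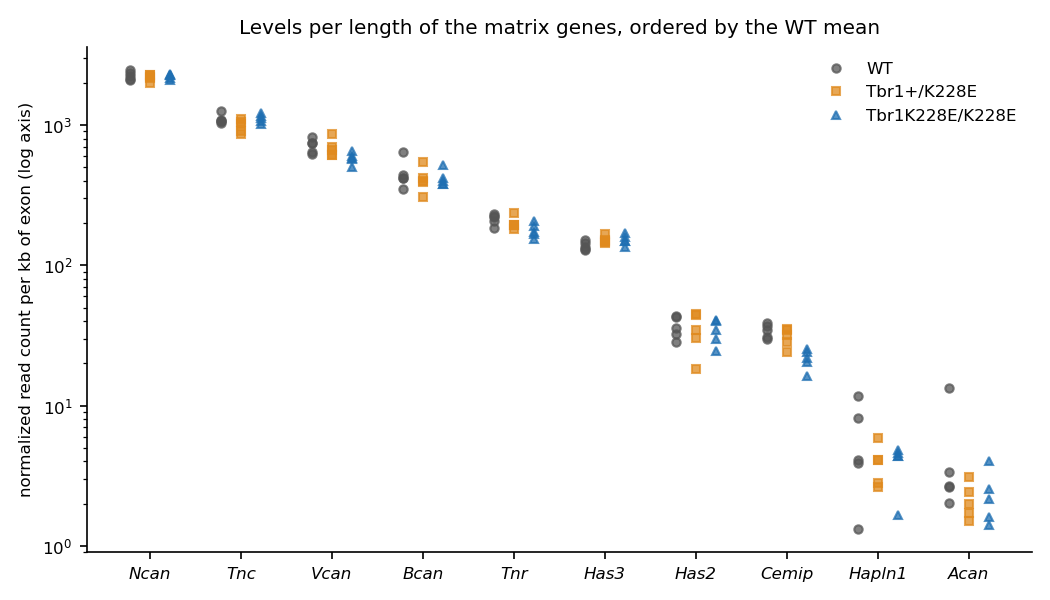
Normalized read count per kb of exon, on a log axis, of the 10 matrix genes in each embryo, by genotype and in the order of the WT mean. The points span from 2466 for Ncan to 1.31 for Hapln1, and the groups of points of Has2 and Cemip, and of Hapln1 and Acan, lie at like heights.

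Among the 4 lecticans, Ncan made up most of the level per kb and Acan almost none. In the WT embryos the shares were 65.6% ± 1.92 (SD, n = 5) for Ncan, 21.0% ± 2.98 (SD, n = 5) for Vcan, 13.3% ± 2.60 (SD, n = 5) for Bcan and 0.141% ± 0.142 (SD, n = 5) for Acan. In the Tbr1K228E/K228E embryos the share of Ncan was 68.9% ± 0.787 (SD, n = 5) and that of Vcan 18.0% ± 1.09 (SD, n = 5), with ranges that overlapped those of the WT embryos, 67.5% to 69.3% against 62.6% to 67.9% for Ncan. The shares of a sample sum to a whole, so that they do not move independently.

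None of the 10 genes passed the adjusted threshold of 0.05 in any comparison (limma with Benjamini-Hochberg adjustment over 16507 genes). Between Tbr1+/K228E and WT embryos, where 0% of all tested genes passed, 1 of the 10 genes, Tnc, had an unadjusted p under 0.05, against 1.79% of all genes. Between Tbr1K228E/K228E and WT embryos, where 0.127% of all tested genes passed, 3 of the 10 had an unadjusted p under 0.05, namely Cemip, Vcan and Tnr, against 3.23% of all genes. All 3 were lower, as were 1.76% of all genes at that p. Between the mutant genotypes, where 0.0788% of all tested genes passed, 3 of the 10 had an unadjusted p under 0.05 against 3.30% of all genes, with Cemip and Vcan lower and Tnc higher in Tbr1K228E/K228E embryos. Embryos of the compared genotypes did not overlap for 0, 1 and 0 of the 10 genes in these 3 comparisons, against 0.260%, 0.594% and 0.878% of all genes. The study, using DESeq2 with a null estimated from the data, called Cemip, Vcan and Tnr in Tbr1K228E/K228E relative to WT embryos at its adjusted threshold of 0.05. Its calls and these differ in model and null but come from the same embryos, so that the direction of these 3 genes is no independent evidence.

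The log2 fold change relative to WT was below 0 for 9 of the 10 genes in Tbr1+/K228E and for 8 of the 10 in Tbr1K228E/K228E embryos, against 51.2% and 51.3% of all tested genes. The median log2 fold change of the 10 genes was -0.14 in Tbr1+/K228E and -0.19 in Tbr1K228E/K228E embryos, beside -0.002 over all genes in both. Both comparisons use the same WT embryos, and several of these genes varied together among embryos, as described further on. Between the mutant genotypes 4 of the 10 were below 0, against 49.8% of all genes, with a median of 0.02.

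**Figure D2:**
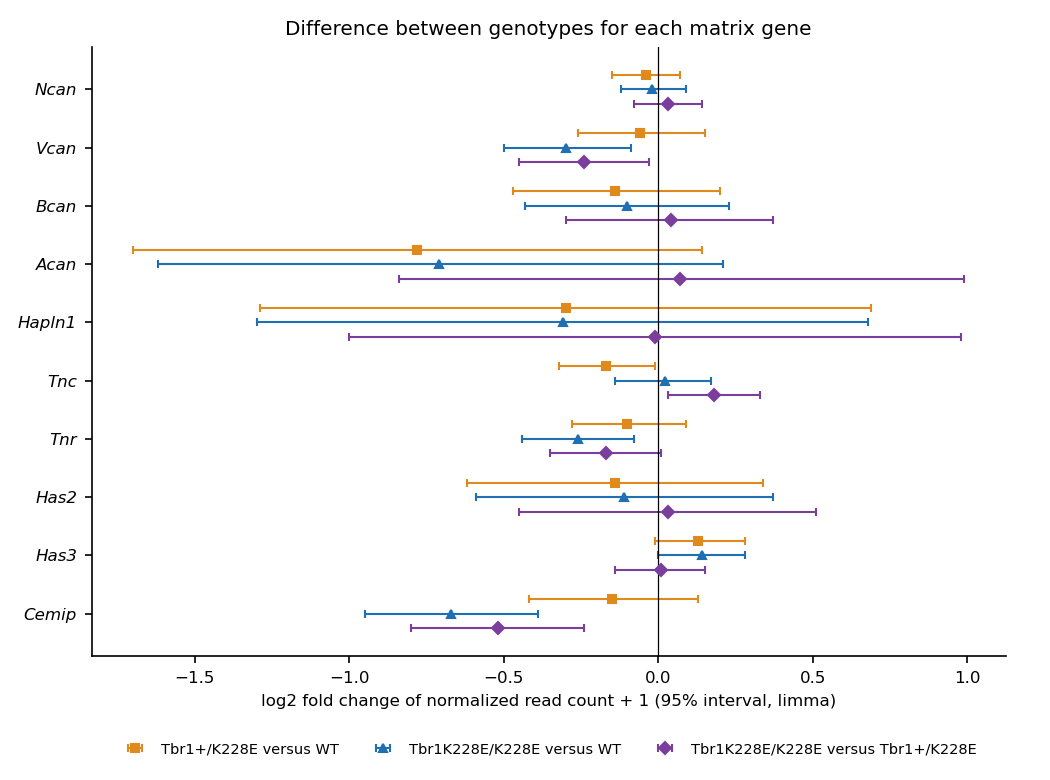
Log2 fold change (x axis, on the scale of normalized read count + 1) of each matrix gene in the 3 comparisons, with 95% intervals from limma as bars. In Tbr1K228E/K228E relative to WT embryos the intervals of Cemip, Vcan and Tnr lie below 0, and the intervals of Acan and Hapln1 are the widest.

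Cemip (chromosome 7, 83932857 to 84086502, minus strand, GRCm38 as for all positions given here) was lower in every Tbr1K228E/K228E embryo than in every WT embryo. Its normalized read counts in replicates 1 to 5 were 452, 473, 363, 420.2 and 376 in WT, 424, 433, 393, 292 and 349.8 in Tbr1+/K228E, and 266, 250.4, 199.5, 292 and 309.6 in Tbr1K228E/K228E embryos. The Tbr1+/K228E embryos overlapped both other genotypes, and Tbr1K228E/K228E replicate 3 was lowest of all. The means were 417 ± 47.3 (SD, n = 5), 378 ± 58.1 (SD, n = 5) and 263 ± 42.5 (SD, n = 5).

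The log2 fold change of Cemip in Tbr1K228E/K228E relative to WT embryos was -0.67 (SE 0.13, 95% interval -0.95 to -0.39). It ranked 23 by p among all genes and missed the threshold (adjusted p = 0.0848, limma with Benjamini-Hochberg adjustment). A two-sided exact permutation test of the 5 against 5 embryos gave p = 0.00794, the smallest it can give, in 1 of 30 such tests over the 10 genes and 3 comparisons. Of all tested genes, 0.273% were lower in this comparison without overlap. The difference from the Tbr1+/K228E embryos was -0.52 on the log2 scale (SE 0.13) and also missed the threshold (limma with Benjamini-Hochberg adjustment, adjusted p = 0.437), with 4 of 5 Tbr1K228E/K228E embryos below the lowest Tbr1+/K228E embryo. In Tbr1+/K228E relative to WT embryos it was -0.15, with a 95% interval from -0.42 to 0.13.

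The Cemip difference was on the other side of the threshold in 2 of the alternatives, with an adjusted p of 0.0305 after quantile normalization and 0.00561 with an empirical null (limma with Benjamini-Hochberg adjustment). Without any single embryo of either genotype the log2 fold change lay between -0.73 and -0.57 and the adjusted p between 0.0683 and 0.298. Cemip moved with the meningeal score among embryos with r = 0.53 (permutation p = 0.0406, adjusted over 20 relations 0.203; rho = 0.60, permutation p = 0.0201, adjusted 0.201), and with r = 0.74 without the 2 embryos farthest from the median score. A fit that included both tissue scores, Hox and meningeal, gave -0.59 for Cemip (limma with Benjamini-Hochberg adjustment, adjusted p = 0.0711). With a score of 8 cartilage genes, added after the data had been seen, it was -0.45 with an adjusted p of 0.355 (limma with Benjamini-Hochberg adjustment). The sum of these 8 genes was between 121 and 239.8 in WT and between 68.4 and 119.8 in Tbr1K228E/K228E embryos (two-sided exact permutation test of the score, p = 0.0635). Of the 8, only Col9a1 did not overlap between these genotypes, with 61.5 to 121 in WT and 37.6 to 52.9 in Tbr1K228E/K228E embryos. Col9a1 is among the genes that the study called in Tbr1K228E/K228E embryos, so that this score cannot separate tissue from genotype. The part of these tissues in the Cemip difference was not tested further.

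The synthases, like Cemip, did not pass the adjusted threshold, and their embryos overlapped between genotypes. Has3 (chromosome 8, 106870242 to 106884566, plus strand), the more highly expressed synthase per kb, had normalized read counts of 835, 823, 922, 958 and 863 in WT, 935, 969.9, 941, 1069 and 912 in Tbr1+/K228E, and 951, 855, 1087, 949 and 1018 in Tbr1K228E/K228E embryos. The mutant embryos overlapped WT, with 2 of 5 in each mutant genotype above the highest WT embryo. Its log2 fold change was 0.13 (SE 0.07, unadjusted p = 0.0651 from limma) in Tbr1+/K228E and 0.14 (SE 0.07, unadjusted p = 0.0532 from limma) in Tbr1K228E/K228E embryos, with adjusted p of 0.999 and 1.00 after Benjamini-Hochberg adjustment. Has2 (chromosome 15, 56665627 to 56694539, minus strand) ranged from 119.6 to 184 in WT, from 76.6 to 189 in Tbr1+/K228E and from 104 to 173 in Tbr1K228E/K228E embryos. Its log2 fold changes of -0.14 and -0.11 had 95% intervals of -0.62 to 0.34 and -0.59 to 0.37.

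Of the lecticans other than the scarce Acan, Vcan had the largest difference between Tbr1K228E/K228E and WT embryos. This gene (chromosome 13, 89655312 to 89742509, minus strand) had normalized read counts of 10819, 11834, 10813, 8972 and 9305 in WT, 8896, 12494, 10097, 9618 and 8848 in Tbr1+/K228E, and 8726, 7285, 9366, 8360 and 8324 in Tbr1K228E/K228E embryos. Of the Tbr1K228E/K228E embryos, 4 of 5 lay below the lowest WT embryo, and replicate 3 overlapped WT. The means were 10349 ± 1186 (SD, n = 5), 9991 ± 1493 (SD, n = 5) and 8412 ± 757 (SD, n = 5).

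The log2 fold change of Vcan in Tbr1K228E/K228E relative to WT embryos was -0.30 (SE 0.10, 95% interval -0.50 to -0.09), with an unadjusted p of 0.00846 and an adjusted p of 1.00 (limma with Benjamini-Hochberg adjustment), and the exact permutation test gave p = 0.0238. Relative to Tbr1+/K228E embryos it was -0.24 (SE 0.10, unadjusted p = 0.0263 from limma; exact permutation p = 0.0317). In Tbr1+/K228E relative to WT embryos it was -0.06, with an interval from -0.26 to 0.15.

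Ncan (chromosome 8, 70093085 to 70120873, minus strand) was the steadiest of the 10 genes. The WT embryos averaged 16137 ± 1145, the Tbr1+/K228E embryos 15644 ± 789.9 and the Tbr1K228E/K228E embryos 15951 ± 697 normalized read counts (SD, n = 5 for each), and the coefficient of variation over all 15 embryos was 5.39%. The 95% interval of the log2 fold change relative to WT reached from -0.15 to 0.07 in Tbr1+/K228E and from -0.12 to 0.09 in Tbr1K228E/K228E embryos, so that the data bound any difference to within that size. Bcan (chromosome 3, 87987531 to 88000230, minus strand) averaged 1852 ± 456, 1677 ± 351 and 1703 ± 234 normalized read counts (SD, n = 5 for each genotype in the same order). Its log2 fold changes of -0.14 and -0.10 were smaller than the spread between embryos, and WT replicate 4 was highest with 2630.

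Acan (aggrecan, the main lectican of cartilage and of the nets around mature neurons) was close to the lower limit of measurement. This gene (chromosome 7, 79053483 to 79115099, plus strand) had normalized read counts of 100.4, 15.1, 19.7, 25.1 and 19.9 in WT, 12.8, 11.2, 18.0, 14.8 and 23.3 in Tbr1+/K228E, and 19.0, 30.1, 10.4, 12.0 and 16.2 in Tbr1K228E/K228E embryos. WT replicate 1 stood alone, and the other 14 embryos lay between 10.4 and 30.1. The log2 fold change of -0.71 (SE 0.43) in Tbr1K228E/K228E relative to WT embryos was -0.25 without WT replicate 1, and that in Tbr1+/K228E embryos was -0.78 (SE 0.43) with and -0.32 without it. In WT replicate 1, 4 of the 8 cartilage genes also had their highest value of all embryos, among them Col9a1 with 121 against at most 79.7 elsewhere, although Cnmd, Epyc, Ucma and Snorc did not. Col9a1 is also in a gene list of the study. The gene most like Acan over the 15 embryos was Pou1f1 (r = 0.85, rho = 0.60), a transcription factor of the anterior pituitary, with 36.9 in WT replicate 1 and at most 5.40 in the others, followed by Epcam (r = 0.81, rho = 0.49), an epithelial adhesion molecule, with 101 against at most 44.2. The part of other tissues in this embryo was not tested.

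Hapln1 (chromosome 13, 89539796 to 89611652, plus strand) was as low as Acan. Its normalized read counts were 69.8, 23.1, 7.76, 48.0 and 24.2 in WT, 34.5, 24.1, 24.1, 16.6 and 15.6 in Tbr1+/K228E, and 28.3, 26.9, 9.85, 25.7 and 25.7 in Tbr1K228E/K228E embryos. WT replicates 1 and 4 were highest, and all genotypes overlapped. The log2 fold changes relative to WT, -0.30 (SE 0.46) and -0.31 (SE 0.46), became 0.03 and 0.02 without WT replicate 1. Hapln1 moved with the Hox score (r = 0.67, permutation p = 0.00626, adjusted over 20 relations 0.0417; rho = 0.55, permutation p = 0.0368, adjusted 0.245) and with the meningeal score (r = 0.67, permutation p = 0.00613, adjusted 0.0417; rho = 0.51, permutation p = 0.0569, adjusted 0.281). Without the 2 embryos farthest from the median of each score, r was 0.67 and 0.69.

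Each lectican gene has a link protein gene as its neighbor in GRCm38, with no deposited gene between them. The gap is 43.7 kb between Vcan and Hapln1 on chromosome 13, 21.5 kb between Bcan and Hapln2 on chromosome 3, 2.22 kb between Ncan and Hapln4 on chromosome 8, and 2 bases between the annotated ends of Acan and Hapln3 on chromosome 7. The libraries were made with a TruSeq RNA v2 kit, which does not mark the strand. The annotated Acan and Hapln3 do not overlap, so that only reads of transcripts running past an annotated end would be uncertain. Such reads were not looked for. None of the 3 other link proteins passed the threshold. In Tbr1K228E/K228E relative to WT embryos the log2 fold change was -0.24 (SE 0.20) for Hapln3, -0.47 (SE 0.39) for Hapln2 and -0.14 (SE 0.25) for Hapln4, each with an adjusted p of 1.00 (limma with Benjamini-Hochberg adjustment). These genes were low, with WT means of 44.3 ± 6.30 (SD, n = 5), 16.9 ± 5.96 (SD, n = 5) and 46.9 ± 8.73 (SD, n = 5).

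The tenascins differed from each other in their order over the genotypes. Tnr (chromosome 1, 159523769 to 159931729, plus strand) had normalized read counts of 2383, 2656, 2976, 2840 and 2898 in WT, 2491, 3041, 2499, 2515 and 2339 in Tbr1+/K228E, and 2158, 1993, 2650, 2455 and 2221 in Tbr1K228E/K228E embryos. Of the Tbr1K228E/K228E embryos, 3 of 5 lay below the lowest WT embryo. The log2 fold change in Tbr1K228E/K228E relative to WT embryos was -0.26 (SE 0.08, 95% interval -0.44 to -0.08), with an unadjusted p of 0.00708 and an adjusted p of 1.00 (limma with Benjamini-Hochberg adjustment; exact permutation p = 0.0317). In Tbr1+/K228E relative to WT embryos it was -0.10, with an interval from -0.28 to 0.09.

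Tnc (chromosome 4, 63959785 to 64047015, minus strand) had its lowest mean in the heterozygote. Its normalized read counts were 8030, 8349, 8274, 9769 and 8468 in WT, 7887, 6658, 7053, 8133 and 8560 in Tbr1+/K228E, and 8270, 9023, 7961, 9439 and 8651 in Tbr1K228E/K228E embryos. Of the Tbr1+/K228E embryos, 3 of 5 lay below the lowest WT embryo, and the others overlapped WT. The log2 fold change in Tbr1+/K228E relative to WT embryos was -0.17 (SE 0.07, unadjusted p = 0.0344, adjusted p = 0.999, limma with Benjamini-Hochberg adjustment; exact permutation p = 0.0952), and that in Tbr1K228E/K228E embryos 0.02, with an interval from -0.14 to 0.17. Without single embryos the Tbr1+/K228E difference lay between -0.21 and -0.12, and it was smallest without WT replicate 4, the embryo with the highest Tnc. The departure of the Tbr1+/K228E embryos from the midpoint of the other genotypes was -0.17 (SE 0.06) with an unadjusted p of 0.0130 and an adjusted p of 0.993 (limma with Benjamini-Hochberg adjustment), where 2.28% of all genes had an unadjusted p under 0.05 and 0 passed after adjustment. None of the other 9 genes departed from the midpoint at that level, with unadjusted p from limma of 0.116 for Cemip and more for the rest.

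**Figure D3:**
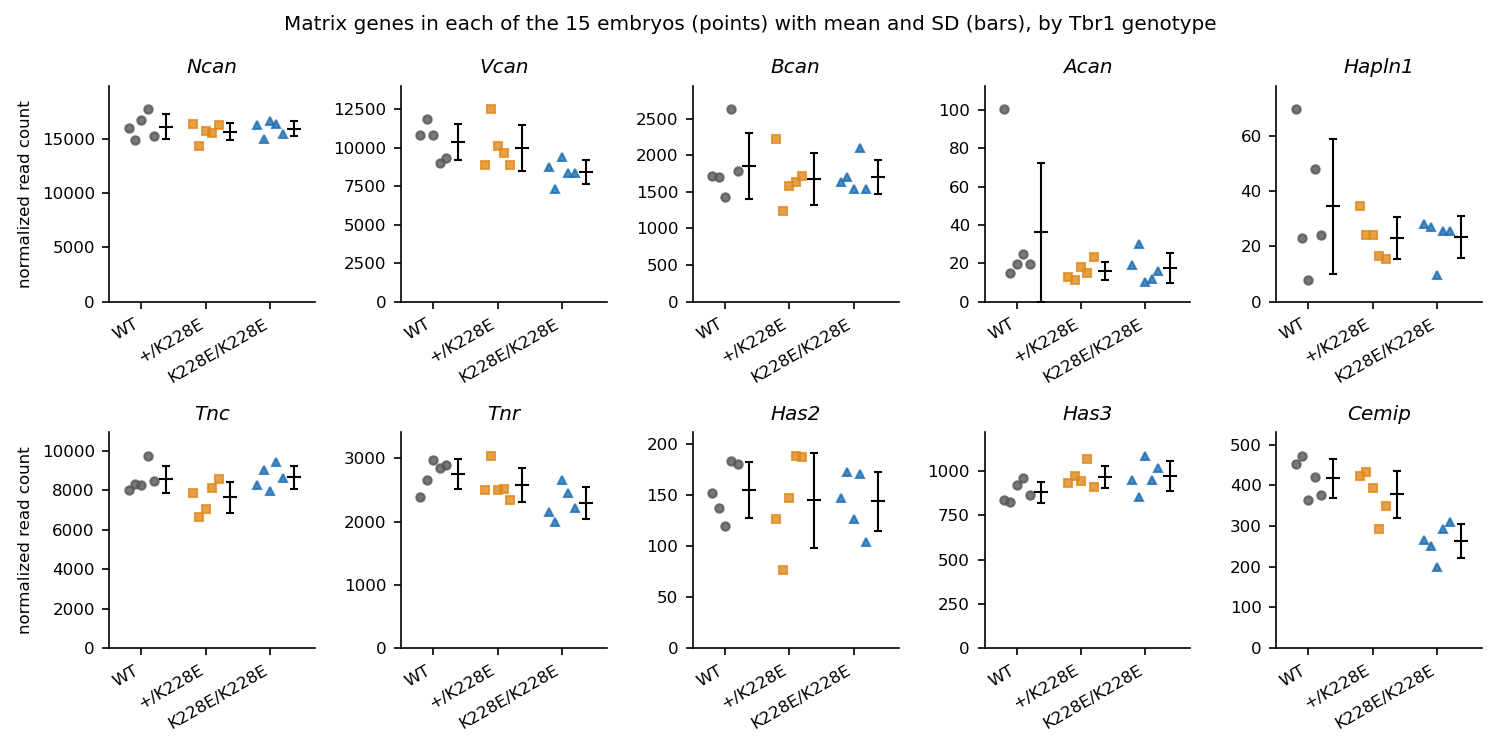
Normalized read count of each matrix gene (y axes start at 0) in every embryo, by genotype, with the mean and SD beside the points. The Tbr1K228E/K228E points of Cemip lie between 199.5 and 309.6, all below the WT points, while the points of the other genes overlap between genotypes, and WT replicate 1 stands apart for Acan at 100.4.

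Promoters are printed here for the 3 genes that were lower at an unadjusted p under 0.05 in Tbr1K228E/K228E than in WT embryos. That of Ncan, the steadiest gene, is printed as well, and all were searched for letters that T-box proteins bind. The sequences are RefSeq promoters of GRCm38.p6, from 250 bases before to 50 bases after the annotated start and printed 5′ to 3′ on the strand of the gene. The T-box core AGGTGT was searched on both strands, and capitals mark a match. The windows are chr7:84086456-84086755 on the minus strand for Cemip, chr13:89742463-89742762 on the minus strand for Vcan, chr1:159523519-159523818 on the plus strand for Tnr and chr8:70120795-70121094 on the minus strand for Ncan.
Cemip: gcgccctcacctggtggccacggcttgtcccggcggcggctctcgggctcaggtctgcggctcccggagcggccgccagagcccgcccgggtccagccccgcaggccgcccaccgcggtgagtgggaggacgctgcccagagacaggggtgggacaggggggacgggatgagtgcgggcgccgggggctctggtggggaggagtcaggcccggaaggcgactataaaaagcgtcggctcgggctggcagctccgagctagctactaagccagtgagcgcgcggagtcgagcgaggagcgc
Vcan: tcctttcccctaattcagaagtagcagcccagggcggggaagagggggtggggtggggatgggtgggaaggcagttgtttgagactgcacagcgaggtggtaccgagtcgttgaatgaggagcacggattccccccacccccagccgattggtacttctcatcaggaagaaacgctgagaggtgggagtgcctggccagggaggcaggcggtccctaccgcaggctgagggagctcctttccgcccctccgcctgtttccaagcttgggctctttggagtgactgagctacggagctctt
Tnr: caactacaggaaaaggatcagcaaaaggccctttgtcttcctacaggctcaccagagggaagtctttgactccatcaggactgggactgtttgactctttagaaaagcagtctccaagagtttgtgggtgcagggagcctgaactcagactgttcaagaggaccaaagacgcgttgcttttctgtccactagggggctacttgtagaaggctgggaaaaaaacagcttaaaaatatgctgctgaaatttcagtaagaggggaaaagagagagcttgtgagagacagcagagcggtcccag
Ncan: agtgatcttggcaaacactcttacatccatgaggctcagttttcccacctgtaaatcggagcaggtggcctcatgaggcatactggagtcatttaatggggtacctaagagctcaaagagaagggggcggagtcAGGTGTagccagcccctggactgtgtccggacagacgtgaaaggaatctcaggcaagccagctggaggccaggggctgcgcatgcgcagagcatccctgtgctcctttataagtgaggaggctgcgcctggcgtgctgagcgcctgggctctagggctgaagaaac

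RefSeq promoters were matched for 8 of the 10 genes, all but Has2 and Has3, and they gave 9 windows because Tnc has 2 of them. The core AGGTGT occurred in 1 of the 9 windows, that of Ncan, where it begins at position -116 relative to the annotated start, against 13.7% of all 32851 promoters in the table. The longer T-box motif AGGTGTGA, which contains the core, occurred in 0 of the 9 and in 1.28% of all promoters. The Cemip window held 73.7% G and C and that of Tnr 48%. A match is only a match of letters in these windows, and its absence says nothing about more distant sites. With a match in 1 window only, whether the core goes with the size of a difference was not tested.

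Among embryos of the same genotype, Bcan, Tnc and Has2 varied in one direction and Vcan in the other. After the genotype means had been subtracted, Vcan and Tnc correlated with r = -0.79 over the 15 embryos (permutation p = 0.00110 within genotypes, adjusted over 45 pairs 0.0247; rho = -0.81, permutation p = 4.70e-04, adjusted 0.0186; r = -0.75 without the 2 farthest embryos). Bcan and Tnc correlated with r = 0.76 (permutation p = 0.00552, adjusted 0.0693; rho = 0.82, permutation p = 0.00124, adjusted 0.0186; r = 0.73 without the 2 farthest), and Bcan and Vcan with r = -0.69 (permutation p = 0.0125, adjusted 0.0803; rho = -0.82, permutation p = 0.00101, adjusted 0.0186; r = -0.60 without the 2 farthest). Has2 had r = 0.71 with Tnc (permutation p = 0.00920, adjusted 0.0693), -0.73 with Vcan (permutation p = 0.00924, adjusted 0.0693) and 0.58 with Bcan (permutation p = 0.0438, adjusted 0.219). The corresponding rho values were 0.70, -0.69 and 0.78 (adjusted permutation p of 0.0757, 0.0467 and 0.0246). Of the 45 pairs of matrix genes, 2 had an adjusted p of r under 0.05, Vcan with Tnc and Acan with Tnr (for the latter r = -0.76, permutation p = 6.00e-04, adjusted 0.0247; rho = -0.72, permutation p = 0.00391, adjusted 0.0352; r = -0.65 without the 2 farthest). The median r over the 45 pairs was 0.01, with 23 of the 45 above 0. Genes that vary in opposite directions also bring this median near 0, so that it cannot show whether the 10 genes vary together.

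The embryos in which Vcan was high for its genotype were those with high forebrain markers. The relation was looked for after the 4 genes had been seen to vary together, over 40 relations of these genes with the 10 marker lists, and it is a description of these embryos. The score of a list is the mean of log2(normalized read count + 1) over its genes. With the score of the 5 forebrain genes, r was 0.78 for Vcan (permutation p = 6.10e-04, adjusted 0.0122; rho = 0.87, permutation p = 2.40e-04, adjusted 0.00480), -0.81 for Bcan (permutation p = 0.00153, adjusted 0.0153; rho = -0.88, permutation p = 1.20e-04, adjusted 0.00480), -0.70 for Tnc (permutation p = 0.00399, adjusted 0.0266; rho = -0.77, permutation p = 0.00195, adjusted 0.0145) and -0.59 for Has2 (permutation p = 0.00865, adjusted 0.0384; rho = -0.71, permutation p = 0.00453, adjusted 0.0201). Without the 2 embryos farthest from the median score, r was 0.85, -0.63, -0.65 and -0.57. Leaving out each embryo in turn kept r between 0.75 and 0.83 for Vcan, -0.88 and -0.70 for Bcan, -0.77 and -0.59 for Tnc, and -0.64 and -0.55 for Has2. Within WT, Tbr1+/K228E and Tbr1K228E/K228E embryos taken alone, r was -0.98, -0.96 and -0.40 for Bcan. In the same order it was 0.76, 0.87 and 0.98 for Vcan, -0.83, -0.72 and -0.74 for Tnc, and -0.90, -0.59 and -0.63 for Has2.

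Single embryos show the pattern. In WT replicate 4 the forebrain markers summed to 7123, the lowest of all embryos, while Bcan (2630) and Tnc (9769) were the highest of all embryos and Vcan (8972) was the lowest of the WT embryos. In Tbr1+/K228E replicate 2 the forebrain markers summed to 15333, the highest of all embryos, with the highest Vcan (12494) and the lowest Bcan (1243), Tnc (6658) and Has2 (76.6) of all embryos. By the score used for the correlations, WT replicate 3 (10.90) and Tbr1K228E/K228E replicate 3 (10.87) lay above this embryo (10.84). Vcan deviated from its genotype mean by only 0.07 and 0.16 on the log2 scale in those embryos, against 0.33 in Tbr1+/K228E replicate 2.

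**Figure D4:**
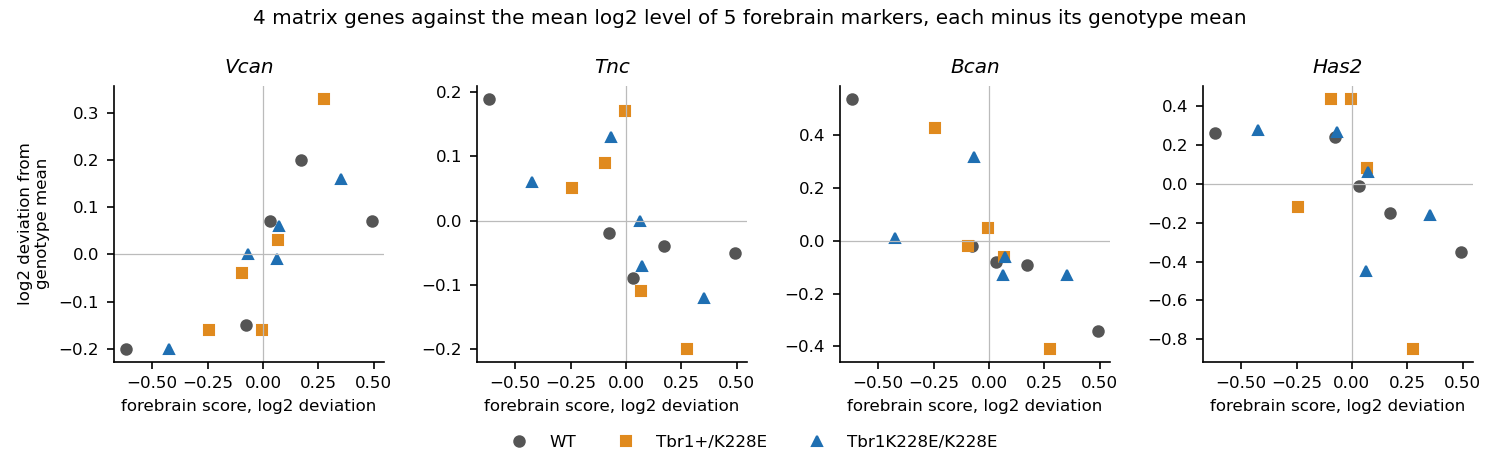
Deviation of Vcan, Tnc, Bcan and Has2 from the genotype mean (y axes, log2) against that of the forebrain score (x axes, log2), with 1 point for each of the 15 embryos. Vcan rises with the score (r = 0.78), and Tnc (r = -0.70), Bcan (r = -0.81) and Has2 (r = -0.59) decline with it.

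The same 4 genes moved with the score of 8 dividing-cell genes, with r = 0.82 for Vcan (permutation p = 6.00e-04, adjusted 0.0122), -0.72 for Tnc (permutation p = 0.00101, adjusted 0.0135), -0.68 for Bcan (permutation p = 0.00530, adjusted 0.0303) and -0.64 for Has2 (permutation p = 0.00325, adjusted 0.0260). The corresponding rho values were 0.82, -0.70, -0.75 and -0.69 (adjusted permutation p of 0.0145, 0.0145, 0.0145 and 0.0167), and r without the 2 farthest embryos was 0.75, -0.64, -0.65 and -0.63. With the midbrain and rostral hindbrain genes, Tnc had r = 0.68 (permutation p = 0.00717, adjusted 0.0358; rho = 0.68, adjusted permutation p = 0.0393; r = 0.44 without the 2 farthest) and Bcan also r = 0.68 (permutation p = 0.0154, adjusted 0.0607; rho = 0.82, adjusted permutation p = 0.0145; r = 0.60 without the 2 farthest). Vcan had r = -0.65 (permutation p = 0.0387, adjusted 0.111; rho = -0.70, adjusted permutation p = 0.0383; r = -0.21 without the 2 farthest), and Has2 r = 0.70 (permutation p = 0.0303, adjusted 0.0934; rho = 0.62, adjusted permutation p = 0.0783; r = 0.39 without the 2 farthest). In all, 9 of the 40 relations had an adjusted p of r under 0.05, and the marker scores and matrix genes come from the same libraries.

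No difference of either score between genotypes was detected. For the forebrain score the two-sided exact permutation p against WT was 0.508 for Tbr1+/K228E and 0.675 for Tbr1K228E/K228E embryos, and for the dividing-cell score 0.484 and 0.722. With the forebrain score as a covariate, a fit added after the data had been seen, Vcan in Tbr1K228E/K228E relative to WT embryos stood at -0.34 on the log2 scale (limma with Benjamini-Hochberg adjustment, adjusted p = 0.0466), the only one of the 10 genes past the threshold in that fit. Cemip then had -0.66 with an adjusted p of 0.0588 and Tnr -0.28 with 0.358. In the same fit 45 genes in all passed, against 21 without the covariate. For Tnc in Tbr1+/K228E relative to WT embryos the log2 fold change with the covariate was -0.12, against -0.17 without it.

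Bcan also moved with the Hox score (r = 0.71, permutation p = 0.00371, adjusted over 20 relations 0.0417; rho = 0.61, permutation p = 0.0179, adjusted 0.201). Without Tbr1+/K228E replicate 1 and WT replicate 4, the embryos farthest from the median of that score, r was 0.31, so that the relation rests on these 2 embryos. Of the 20 relations of the 10 genes with the Hox and meningeal scores, 3 had an adjusted p of r under 0.05, those of Bcan and Hapln1 given above, and 0 had an adjusted p of rho under 0.05.

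The genes most like each matrix gene over the 15 embryos differ from gene to gene. For Bcan they included Hepacam (r = 0.96, rho = 0.88), a glial adhesion molecule, and Atp1b1 (r = 0.96, rho = 0.90). Hepacam had its highest value, 728, in WT replicate 4, as Bcan did. For Vcan they were Nrip1 (r = 0.90, rho = 0.84), a nuclear receptor cofactor, Nfia (r = 0.90, rho = 0.83), a transcription factor of gliogenesis, and Kcnj4 (r = 0.88, rho = 0.85), a potassium channel. For Cemip they were Icosl (r = 0.88, rho = 0.88), Klf9 (r = 0.87, rho = 0.82) and the netrin receptor Unc5b (r = 0.87, rho = 0.87). For Tnr they were the potassium channel genes Kcnq3 (r = 0.90, rho = 0.93) and Kcnv1 (r = 0.88, rho = 0.87), with Arhgef26 (r = 0.88, rho = 0.90) between them. These genes are the extremes of 16507, and the genotypes enter the correlation.

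The enzymes and receptors around the matrix showed no gene past the adjusted threshold in any comparison or in any alternative. Their 6 lists held 3 other link proteins and 14 genes of hyaluronan synthesis, turnover and reception. There were 21 measured genes of chondroitin sulfate assembly and sulfation, and 8 genes of lectican proteases, an inhibitor of them counted among the 8. The last lists held 14 receptors and 16 other tenascins and neural proteoglycans. At an unadjusted p under 0.05 from limma there were 2 genes of these lists in Tbr1+/K228E relative to WT embryos, 0 in Tbr1K228E/K228E relative to WT and 1 between the mutant genotypes, against 1.79%, 3.23% and 3.30% of all genes. Csgalnact2, which starts and extends chondroitin chains, had a log2 fold change of -0.12 in Tbr1+/K228E relative to WT embryos (unadjusted p = 0.0440) and of 0.12 between the mutant genotypes (unadjusted p = 0.0397), and the integrin subunit Itgav had -0.23 in Tbr1+/K228E relative to WT embryos (unadjusted p = 0.0395).

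In Tbr1K228E/K228E relative to WT embryos, the median log2 fold change was -0.04 for the hyaluronan list, -0.02 for chondroitin sulfate assembly, -0.08 for the proteases, 0.00 for the receptors and -0.12 for the other proteoglycans, beside -0.002 over all genes. For the 3 other link proteins it was -0.24, with all 3 below 0. Of the hyaluronan genes, Cemip2, a cell-surface hyaluronidase related to Cemip, had 0.08 (SE 0.06; 3161 ± 302 against 3328 ± 119, SD, n = 5), Tnfaip6, a hyaluronan-binding protein of inflammation, -0.31 (SE 0.24), and Stab2, a clearance receptor, 0.60 (SE 0.49). Single embryos set much of these differences, since Stab2 had 0.26 without Tbr1K228E/K228E replicate 1 and 0.90 without WT replicate 4, and Tnfaip6 had -0.12 without Tbr1K228E/K228E replicate 2. In the chondroitin sulfate list, the initiating transferase Csgalnact1 had -0.36 (SE 0.17, unadjusted p = 0.0514 from limma; 179 ± 36.8 against 137 ± 11.7, SD, n = 5), and the sulfotransferases Chst15 and Chst3 had -0.18 (SE 0.10) and -0.16 (SE 0.09). Of the lectican proteases, Adamts20 had 0.22 (SE 0.12), Adamts1 0.27 (SE 0.17) and Adamts4 -0.08 (SE 0.09).

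Of the receptors, Itgav had -0.17 (SE 0.10), the receptor phosphatase Ptprz1, which binds tenascins and chondroitin sulfate, 0.14 (SE 0.09; 14714 ± 1728 against 16263 ± 2270, SD, n = 5), and the cell adhesion molecule Nrcam 0.08 (SE 0.05). Of the other proteoglycans, Cspg4, a marker of oligodendrocyte precursors, had -0.16 (SE 0.10), Bgn, a small matrix proteoglycan, -0.49 (SE 0.41) and the glypican Gpc6 -0.15 (SE 0.15). Bgn had -0.22 without Tbr1K228E/K228E replicate 4 and -0.78 without WT replicate 3, and Gpc6 had -0.07 without WT replicate 1. The Tbr1K228E/K228E and WT embryos overlapped for all 18 genes that were named from these lists. Leaving out single embryos changed the sign of none of these 18 differences.

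**Figure D5:**
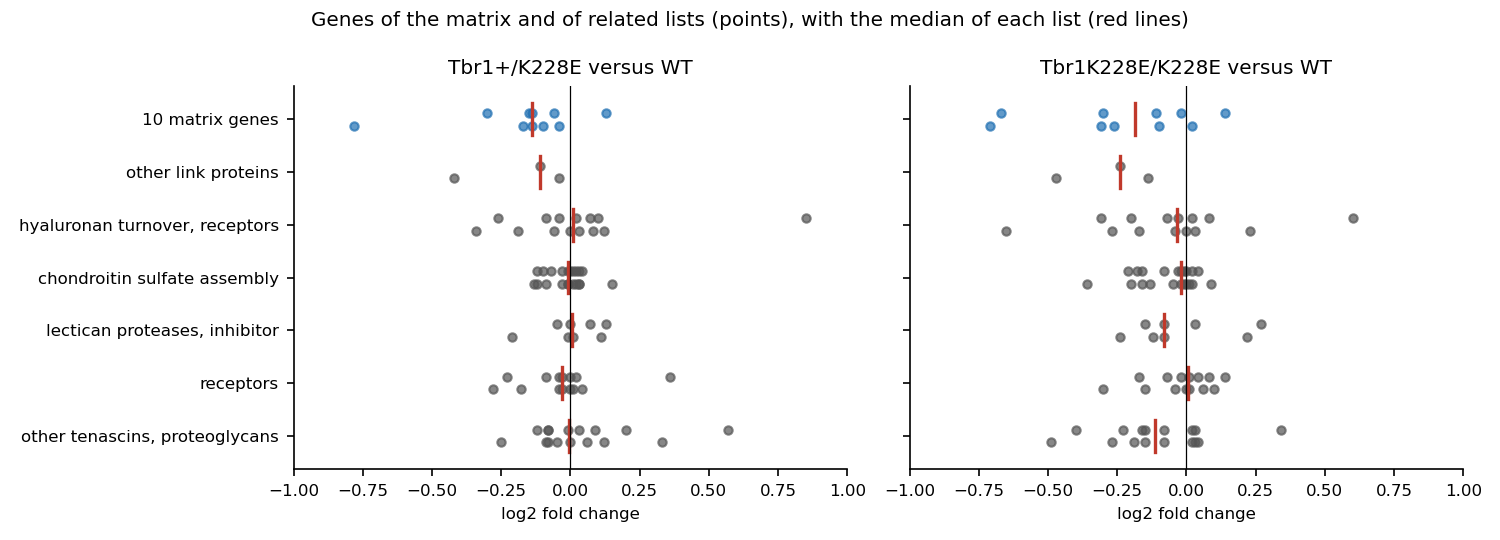
Log2 fold change of the 10 matrix genes (blue) and of the genes of the 6 related lists (grey) in Tbr1+/K228E (left) and Tbr1K228E/K228E (right) relative to WT embryos, with list medians as red lines. The medians of the 10 matrix genes, -0.14 and -0.19, and those of the 3 other link proteins, -0.11 and -0.24, lie below 0. Those of the larger lists lie between -0.12 and 0.01.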

How the data were processed

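RNA-Seq of 15 E16.5 embryos was analysed, grouped by genotype from the sample labels. The authors estimated transcript abundance with Salmon 0.11.2 on GRCm38 (quasi-mapping, with GC bias correction), summed it to genes with tximport and divided it by DESeq2 1.22.2 size factors in R 3.5.3, as the submitters' processing notes and the paper's methods give it. What the authors deposited is thus signal scaled by library, not whole reads; it is called normalized read count here, and no count model was fitted. The values of an embryo summed to between 30500000 and 31800000.

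Differences were fitted to log2(value + 1) of 16507 genes with a mean of at least 5 in R 4.3.3 with limma 3.58.1 (lmFit, eBayes with trend), all 15 embryos in one fit, and p-values were adjusted by the Benjamini-Hochberg method over all tested genes. Log2 fold changes on this scale understate those of low genes. Single genes were compared by two-sided exact permutation tests. Correlations used 100000 permutations, within genotypes where genotype means had been subtracted. The labels do not say whether embryos share a litter. The tests took the embryos as independent, and their p-values may be too small if embryos of a genotype share litters.

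The 10 genes and all gene lists were chosen with earlier results of these data known. The genes named from the related lists are the 3 with the smallest unadjusted p in Tbr1K228E/K228E relative to WT embryos in each list, and the genes most like a member those with the highest r. The other genes named, Csgalnact2 among them, were chosen after their values were seen. A forebrain marker of the list and a gene most like Bcan are not reported here, and the forebrain score leaves that marker out. Of the 19475 identifiers, 19452 matched GENCODE M21, which gave coordinates and exon lengths. On simulated data, the fit recovered 158 of 200 genes given a log2 change of 1 between Tbr1K228E/K228E and WT, with 4 false calls among 16507 genes. That change is larger than any log2 fold change of the 10 genes in the main fit, Acan (-0.78) and Cemip (-0.67) among them. The simulation thus does not show how many changes of their size would be recovered. No columns were identical, and log2 values within a genotype correlated with r of 0.9769 to 0.9872. Alternatives were other pseudocounts (0.1 and 10), filters (none and 50) and scalings, sex, the replicate block, robust eBayes, a fit of 2 genotypes alone, an empirical null, tissue scores as covariates, and leaving out each embryo.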

Additional observations from a re-analysis of the deposited data

Results flagged for a closer look

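In each group of 5 embryos the highest and the lowest value of each matrix gene was compared with its nearest neighbor. In 5 of 30 groups the gap was a larger part of the whole range than Dixon's 95% critical value, where chance flags about 1 in 20 groups. Acan in WT replicate 1 had 100.4 normalized read counts, with the next WT embryo at 25.1. Bcan in Tbr1K228E/K228E replicate 4 had 2105, with the next at 1700. Hapln1 in Tbr1K228E/K228E replicate 3 had 9.85, the lowest of its genotype, with the next at 25.7. Tnc in WT replicate 4 had 9769, with the next at 8468, and Tnr in Tbr1+/K228E replicate 2 had 3041, with the next at 2515.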

How the results depend on the processing

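None of the 10 genes passed the adjusted threshold in any genotype comparison under most alternatives. In Tbr1K228E/K228E relative to WT embryos 1 of the 10 passed under quantile normalization and under the empirical null (Cemip in both), and 1 with the forebrain score, an alternative chosen after seeing the data (Vcan). Over all genes, that comparison gave 12 calls in the fit of 2 genotypes alone, 43 under the empirical null, 12 with the cartilage score, 45 with the forebrain score and 12 to 21 without single embryos. Tbr1K228E/K228E against Tbr1+/K228E gave 2 with the replicate block, 0 under the empirical null, 29 with the forebrain score and 6 to 8 without single embryos, against 13, and Tbr1+/K228E against WT gave 1 with the forebrain score. The labels do not say whether replicate numbers pair the embryos. Same-numbered embryos, of the same sex, correlated in their deviations with mean r of 0.069 for Tbr1+/K228E with WT, 0.243 for Tbr1K228E/K228E with WT and 0.011 between the mutant genotypes. Other pairs had mean r of -0.017, -0.059 and -0.003. The same-numbered r was over 0.1 in 2, 4 and 2 of 5 pairs, and embryos correlated best with their own number in 2, 5 and 4 of 10 cases. Same-numbered Tbr1K228E/K228E and WT embryos were thus more alike than others, and the source of this likeness was not tested. With the block no member passed, and Cemip had an adjusted p of 0.150 (limma).

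Of 714 recomputed differences of the members, 42 changed sign, all of differences that were not called, and the cause was not tested. For Tbr1K228E/K228E against Tbr1+/K228E these were Hapln1 with a pseudocount of 10 (0.0027), Ncan and Hapln1 under quantile normalization (-0.00074 and 0.05), Bcan, Ncan, Hapln1, Has2 and Has3 with the Hox and meningeal scores (-0.01, -0.01, 0.29, -0.03 and -0.02), and Hapln1, Has2 and Has3 with the cartilage score (0.61, -0.11 and -0.02), and Has2 with the forebrain score (-0.0028). Relative to WT, Bcan in Tbr1+/K228E (0.01) and Hapln1 in Tbr1K228E/K228E embryos (0.10) changed sign with the Hox and meningeal scores, and Hapln1 (0.54), Tnc (-0.03), Bgn (0.31) and Gpc6 (0.15) in Tbr1K228E/K228E embryos with the cartilage score. The departure from the midpoint changed sign for Bcan (0.01) and Ncan (0.0044) with the Hox and meningeal scores and for Hapln1 (0.02) with the forebrain score.

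Without single embryos, the log2 fold changes of Tbr1+/K228E against WT ranged from -0.72 to 0.03 for Hapln1 and from -0.25 to 0.07 for Has2. Those of Tbr1K228E/K228E against WT ranged from -0.19 to 0.03 for Bcan, -0.04 to 0.02 for Ncan, -0.73 to 0.02 for Hapln1, -0.20 to 0.0027 for Has2 and -0.02 to 0.06 for Tnc. Between the mutant genotypes the ranges were -0.14 to 0.22 for Acan, -0.06 to 0.14 for Bcan, -0.0014 to 0.05 for Ncan, -0.13 to 0.26 for Hapln1, -0.18 to 0.14 for Has2 and -0.03 to 0.05 for Has3. The departure from the midpoint ranged from -0.19 to 0.01 for Bcan, -0.36 to 0.02 for Hapln1, -0.20 to 0.12 for Has2 and -0.02 to 0.07 for Tnr. Cemip, Vcan and Tnr stayed below WT in Tbr1K228E/K228E embryos under all 24 alternatives run. Depth limits Acan and Hapln1, which the filter at a mean of 50 removed.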
